A study of Mus musculus with 6 samples.

Results

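Interferon-stimulated genes and genes of class I antigen presentation were followed in RNA that came down with Staufen2 and in the total RNA of the same podocyte line. The set holds 42 listed genes, chosen by name with earlier results of these data known. For 35 of them the array had a probe set (a group of probes summarised as 1 value) listed for that gene alone. In all 19938 genes had such a probe set, and the brightest per gene over all 6 arrays was used. The remaining 7 were Ifi44, which was not analysed here, and Isg15, Gbp2, Igtp, Irgm2, H2-K1 and H2-D1, whose probe sets are each listed for several genes.

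Staufen2 binds double-stranded RNA and is best known for carrying mRNA in neurons, and podocytes are the glomerular epithelial cells whose foot processes take part in filtration. There were 3 arrays of input RNA (input) and 3 of RNA co-precipitated with an antibody against Staufen2 (stau2, here the pulldown), with replicates numbered 1 to 3 in each. All 6 came from differentiated immortalized murine podocytes, an established line without further treatment. Per the labels' protocols the cells were propagated at 33 °C with 10 U/ml mouse recombinant interferon gamma and differentiated at 37 °C without it, so both groups share an earlier exposure to the cytokine that drives many of these genes. Cytoplasmic lysate was cleared with protein G beads before the antibody was added, and 100 ng of RNA of either kind was labelled. The values therefore compare composition, not how much of an RNA was bound. For the level within either group, bulk RNA does not tell fewer cells with a transcript from less of it per cell. No precipitation with a control antibody was analysed here.

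Values are log2 expression values, and differences are pulldown minus input on that scale with the moderated standard error (SE). A gene was called higher or lower when its limma adjusted p was under 0.05 over all genes tested. Arrays of 1 group correlated at 0.998 to 0.999 over all probe sets, and arrays of different groups at 0.982 to 0.983. Separate cultures are not stated in the labels, so the p-values reflect the spread among these arrays alone, and that spread may be technical. The median of all probe sets, 6.54, served as a mark below which signal may be background. Of 11 measured podocyte markers 7 lay above it in the input, Wt1 (9.57), Cd2ap (11.98) and Actn4 (13.09) among them, whereas the slit diaphragm gene Nphs1 lay below it at 6.30. Of 11 immune markers 4 lay above it in the input, with the pan-leukocyte gene Ptprc at 5.64, and the mean over this list was 6.20 to 6.24 on the input arrays and 6.08 to 6.11 on the pulldown arrays. In the pulldown 4 of the 11 immune markers were lower and 1 was higher. The lower ones, Cd14, Cd68, Nkg7 and Csf1r, were those 4 above 6.54 (input means 7.68, 7.38, 7.02 and 6.55). Laptm5, the higher one, stayed below 6.54 in both groups (input mean 5.97, pulldown mean 6.21). By contrast, 7 of 11 podocyte markers were higher and none lower (median 0.28). Over all genes tested 31.3% were higher and 17.3% lower, and of the 12156 above 6.54, 5575 were higher and 3253 lower. Of 6 mesangial or fibroblast markers 1 was higher and 1 lower, with Acta2 at 13.57 in the input, and of 7 tubular or parietal markers 3 were higher and 2 lower, with Pax8 at 11.39. Of 6 endothelial markers 2 were higher and 1 lower. Of 5 plasmacytoid dendritic markers 1 was higher and 1, Bst2, which is also a member, was lower. The part of these shifts in the members' values was not tested.

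Cells sense foreign nucleic acid through receptors such as RIG-I and MDA5, which leads to the production of interferons. Interferons act through receptor-bound JAK kinases, and STAT proteins then enter the nucleus, where a complex that holds STAT2 and IRF9 binds the interferon-stimulated response element (ISRE) of its target genes. The gamma-activated sequence (GAS) is the element known from genes that respond to interferon gamma. The products degrade or trap viral RNA, block viral entry, signal to other cells and raise the display of peptides on class I molecules.

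Most of the members differed between pulldown and input, more often downward than upward. Among the 35 measured, 19 were lower, 10 higher and 6 not past the test, so 82.9% were called against 48.7% of all genes tested. Higher calls made up 31.3% of all genes and lower calls 17.3%. The median difference of the members was -0.22, which corresponds to 1.17-fold lower, and that of all genes was 0.04. In whichever group was higher, 33 of the 35 exceeded 6.54. As a description, the median among those 33 was -0.24 and 87.9% were called, against 0.09 and 72.6% for the 12156 genes above the same mark. The values of the 3 pulldown arrays did not overlap those of the 3 input arrays for 28 of 35 members, and for 55.9% of all genes. Above 6.54 this held for 28 of 33 members and for 9491 of 12156 genes, so the level of signal matters to this comparison. Differences were mostly small, and of the 35 only Isg20 and Zbp1 reached a 2-fold change. After cyclic loess scaling 9 members were higher and 21 lower, while over all genes the split went from 6246 higher and 3459 lower to 5127 and 4565.

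**Figure D1:**
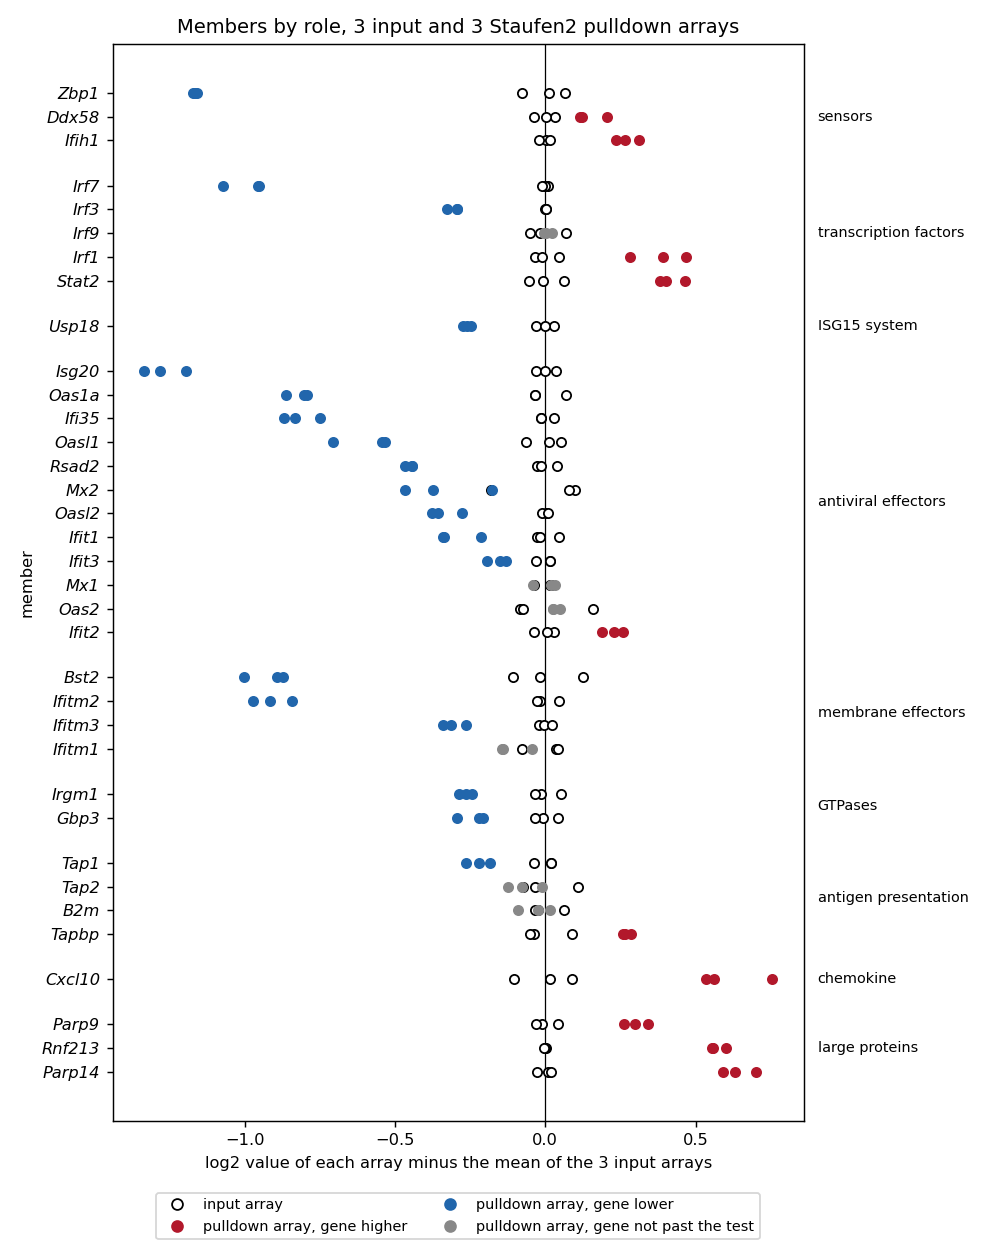
Each row is a member with its own probe set, grouped by role. The horizontal axis gives the log2 value of each array minus the mean of the 3 input arrays. Open circles are the 3 input arrays and filled circles the 3 pulldown arrays, coloured by the limma call. The pulldown arrays of Isg20 and Zbp1 lie farthest to the left, and those of Parp14, Cxcl10 and Rnf213 farthest to the right.

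Many of the members are known targets of the same promoter elements, so their promoters are shown beside their behaviour as RNA. In RefSeq's table of promoters (GRCm38.p6, 250 bases before to 50 after the start), 34 of the 42 genes had an entry. The core letters of the ISRE, GAAANNGAAA on either strand, were found in at least 1 promoter of 18 of these 34 genes (52.9%). Counted by promoter, they were in 18 of the members' 41 entries and in 3.44% of all 32851. The letters of the GAS, TTCNNNGAA, were found for 9 of 34 genes (26.5%), in 9 of 41 entries against 8.30% of all promoters. In 2 member promoters the letters of both motifs overlapped. Matches to the ISRE core were present in 4 of the 8 genes that were higher in the pulldown and had an entry, in 9 of the 16 that were lower, and in 1 of the 3 that did not pass. Each of the 4 promoters printed here holds the ISRE core (in capitals, written 5' to 3' along the gene's strand). Cxcl10 and Stat2 were higher in the pulldown, and Ifit1 and Rsad2 were lower.
Cxcl10 (chr5:92348840-92349139, minus strand): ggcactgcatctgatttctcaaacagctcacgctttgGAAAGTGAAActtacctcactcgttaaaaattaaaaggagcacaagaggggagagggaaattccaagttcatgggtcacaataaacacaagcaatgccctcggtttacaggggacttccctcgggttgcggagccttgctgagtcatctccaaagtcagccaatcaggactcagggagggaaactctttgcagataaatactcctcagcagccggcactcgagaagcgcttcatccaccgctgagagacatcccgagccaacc
Stat2 (chr10:128270248-128270547, plus strand): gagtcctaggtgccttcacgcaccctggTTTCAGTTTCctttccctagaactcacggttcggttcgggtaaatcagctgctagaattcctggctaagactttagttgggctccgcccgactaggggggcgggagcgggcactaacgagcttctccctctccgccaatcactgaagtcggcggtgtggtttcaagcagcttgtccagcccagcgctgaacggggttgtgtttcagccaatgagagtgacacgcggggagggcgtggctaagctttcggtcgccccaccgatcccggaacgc
Ifit1 (chr19:34640639-34640938, plus strand): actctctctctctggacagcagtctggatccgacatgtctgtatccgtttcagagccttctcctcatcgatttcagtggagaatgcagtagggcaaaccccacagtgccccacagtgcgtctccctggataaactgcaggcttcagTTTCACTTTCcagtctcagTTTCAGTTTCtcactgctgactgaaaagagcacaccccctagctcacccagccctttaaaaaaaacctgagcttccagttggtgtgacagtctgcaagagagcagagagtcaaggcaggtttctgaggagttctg
Rsad2 (chr12:26456403-26456702, minus strand): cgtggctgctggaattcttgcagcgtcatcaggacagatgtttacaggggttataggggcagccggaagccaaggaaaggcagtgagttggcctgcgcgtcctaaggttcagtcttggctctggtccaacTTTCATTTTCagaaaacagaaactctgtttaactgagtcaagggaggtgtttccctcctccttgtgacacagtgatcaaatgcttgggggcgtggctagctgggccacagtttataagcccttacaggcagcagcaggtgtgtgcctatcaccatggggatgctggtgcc
Counting from the start of the gene, the match begins at base -213 in Cxcl10, -222 in Stat2 and -120 in Rsad2. Ifit1 has a pair of matches, at -104 and -85. A match is a description of the letters only.

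The nucleic acid sensors went both ways. Zbp1, which recognises Z-form nucleic acid and can start necroptosis, stood at 10.71, 10.62 and 10.76 on the input arrays and at 9.54, 9.53 and 9.53 on the pulldown arrays. All pulldown values lay more than a log2 unit below the lowest input value, and the gene was 2.24-fold lower (-1.17 ± 0.040, SE; limma adjusted p = 4.7e-07). The helicase Ifih1 (MDA5), which senses long double-stranded RNA, stood at 10.95, 10.97 and 10.93 in the input and 11.19, 11.26 and 11.21 in the pulldown. Its groups did not overlap and the difference was 0.27 ± 0.031 (SE), or 0.17 after cyclic loess scaling. Ddx58 (RIG-I), which senses short RNA with a triphosphate end, was higher by 0.15 ± 0.036 (limma adjusted p = 0.011), and after cyclic loess scaling it did not pass (0.05, adjusted p = 0.28).

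Among the transcription factors Stat2 and Irf1 were higher, Irf7 and Irf3 were lower, and Irf9 did not pass. Stat2, a partner of IRF9 in the complex that binds the ISRE, stood at 11.12, 11.00 and 11.05 in the input and 11.52, 11.44 and 11.46 in the pulldown, a difference of 0.42 ± 0.040 (SE). Its groups were clearly apart. Irf9, the DNA-binding subunit of that complex, stood at 11.00, 10.97 and 11.09 in the input and 11.04, 11.02 and 11.02 in the pulldown, and its groups overlapped (0.01 ± 0.037, limma adjusted p = 0.90). Irf7, which amplifies type I interferon production, went from 11.07, 11.06 and 11.05 to 10.11, 9.99 and 10.10. That is 1.99-fold lower (limma adjusted p = 7.4e-07), with each pulldown array far below the input arrays. Irf3, the constitutive factor that acts ahead of Irf7, was lower by a smaller amount, at -0.31 ± 0.026. Irf1, a factor induced by interferon gamma, went from 10.20, 10.12 and 10.14 to 10.55, 10.44 and 10.63, with a difference of 0.38 ± 0.051. Its second, dimmer probe set gave 0.089, and the mean of both gave 0.23.

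Of 12 measured antiviral effectors that act on RNA or by other routes, 9 were lower, 1 was higher and 2 did not pass, with a median of -0.34. Isg20, an exonuclease that degrades RNA, showed the largest difference of the 35 measured members. It stood at 10.63, 10.65 and 10.69 in the input and 9.32, 9.46 and 9.37 in the pulldown. No pulldown value came near the input values, and the gene was 2.41-fold lower (-1.27 ± 0.041, limma adjusted p = 4.3e-07).

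The oligoadenylate synthetases make the messenger that activates RNase L, and their relatives Oasl1 and Oasl2 have other antiviral roles. Oas1a went from 9.90, 9.80 and 9.80 to 8.97, 9.03 and 9.04 (-0.82 ± 0.039). A further probe set, listed for Oas1a and its near copy Oas1g together, gave -0.84. Since such copies can share probes, the value may belong to more than Oas1a. Oasl1 was lower at -0.59 ± 0.055 and its direct neighbour on chromosome 5, Oasl2, at -0.34 ± 0.034. Oas2 stood at 7.22, 7.23 and 7.46 in the input and 7.35, 7.33 and 7.33 in the pulldown, and its input spread of 0.14 (SD, n = 3) was wider than its difference of 0.03. Without input replicate 3, its highest array, Oas2 was higher by 0.11 (limma adjusted p = 0.016).

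The Ifit genes, whose products bind viral RNA ends and translation factors, lie close together on chromosome 19 and did not move alike. Ifit1 stood at 12.29, 12.36 and 12.30 in the input and 11.98, 12.11 and 11.98 in the pulldown, with no overlap (-0.30 ± 0.043). Ifit3 was lower by less, at -0.16 ± 0.031 (limma adjusted p = 0.0034), and its value is uncertain because near-identical copies of it exist. Ifit2, next to Ifit3, went the other way, from 10.43, 10.50 and 10.48 to 10.70, 10.73 and 10.66. Every pulldown array of Ifit2 exceeded every input array (0.23 ± 0.032, limma adjusted p = 0.00065). After cyclic loess scaling Ifit2 was higher by 0.12 (adjusted p = 0.028) and Ifit3 lower at -0.25. The test of the difference between these genes was not run.

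Ifi35, a partner of NMI in inflammatory signalling, went from 11.25, 11.21 and 11.20 to 10.35, 10.39 and 10.47, which is 1.76-fold lower. Rsad2 (viperin), which makes a chain-terminating nucleotide, went from 10.24, 10.25 and 10.31 to 9.80, 9.82 and 9.82, and the pulldown arrays lay close together below the input arrays (-0.45 ± 0.029). The genes Mx1 and Mx2, named for dynamin-like GTPases and counted among these effectors, are both listed by RefSeq as transcribed pseudogenes. Mx1 gave 4.82 in the input and 4.82 in the pulldown, near background, so nothing can be read from it. Mx2 was lower at -0.34 ± 0.096 (limma adjusted p = 0.021). Its groups met at 7.18 on input replicate 2 and 7.18 on pulldown replicate 1, and it did not pass without input replicate 1 (adjusted p = 0.089), input replicate 3 (0.093), pulldown replicate 2 (0.077) or pulldown replicate 3 (0.082), nor with the unmoderated statistic (0.11).

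Of 4 effectors at membranes 3 were lower and 1 did not pass. Bst2 (tetherin), which holds budding virus at the cell surface, stood at 11.35, 11.11 and 11.20 in the input and 10.33, 10.22 and 10.35 in the pulldown. The groups were apart by far more than the input spread of 0.12 (SD, n = 3), and the difference was -0.92 ± 0.064. The Ifitm proteins hinder viral fusion and their genes lie side by side on chromosome 7. Ifitm2 went from 12.32, 12.31 and 12.38 to 11.37, 11.50 and 11.42, a difference of -0.91 ± 0.041, and its other 2 probe sets gave -0.75 and -1.12. Ifitm3 fell by 0.31 on the log2 scale, from 13.12, 13.14 and 13.17 to 12.83, 12.88 and 12.80. Ifitm1 lay just below that mark of 6.54 (6.48 in the input) and did not pass (-0.11, limma adjusted p = 0.083), although it did under the 5 alternatives given in the closing section. The family shares sequence, so the split of signal among its members is uncertain.

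Usp18, the protease that removes ISG15 from proteins and dampens receptor signalling, went from 12.78, 12.71 and 12.75 to 12.47, 12.48 and 12.50. The pulldown arrays lay together below the input arrays (-0.26 ± 0.028, limma adjusted p = 0.00013). ISG15 itself is a small ubiquitin-like protein. A probe set listed for Isg15 and Gm9706 together stood at 9.22, 9.13 and 9.11 in the input and at 7.78, 7.92 and 7.98 in the pulldown, a difference of -1.26 that cannot be assigned to either gene.

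The interferon-inducible GTPases attack the vacuoles of intracellular pathogens. Both that had a probe set of their own were lower, Gbp3 at -0.24 ± 0.036 and Irgm1 at -0.27 ± 0.033. Irgm1 stood at 12.81, 12.79 and 12.88 in the input and 12.54, 12.56 and 12.58 in the pulldown, without overlap. Shared probe sets gave -0.35 for Gbp2 with Gbp2b and -0.12 for Igtp with Irgm2.

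Of 4 genes of class I antigen presentation 1 was higher, 1 was lower and 2 did not pass the test. B2m, the invariant light chain of class I molecules, stood at 13.04, 13.03 and 13.12 in the input and 13.04, 13.08 and 12.97 in the pulldown. The groups overlapped (-0.03 ± 0.041, limma adjusted p = 0.55). A pair of probe sets, each listed for the class I heavy chains H2-K1 and H2-D1 together with LOC547349, gave -0.11 and -0.19. Tap1, a subunit of the transporter that brings peptides into the endoplasmic reticulum, went from 11.12, 11.06 and 11.11 to 10.91, 10.83 and 10.88 (-0.22 ± 0.033). Its partner subunit Tap2 had a difference of -0.07 ± 0.054 (limma adjusted p = 0.33), and of -0.18 (adjusted p = 0.017) after cyclic loess scaling. Tapbp (tapasin), which joins class I molecules to that transporter, was higher, from 11.55, 11.54 and 11.68 to 11.86, 11.85 and 11.87 (0.27 ± 0.042, limma adjusted p = 0.0010), and by 0.17 after cyclic loess scaling. A pair of probe sets listed for Tapbp together with the ribosomal protein gene Rps3a1 gave -0.85 and -0.86, values that cannot be assigned to either gene. The direction given for Tapbp is that of its own probe set alone.

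The largest positive differences belonged to Parp14, Cxcl10 and Rnf213. Parp14, a large ADP-ribosyltransferase with macrodomains, went from 10.24, 10.25 and 10.21 to 10.87, 10.83 and 10.93. It was 1.56-fold higher (0.64 ± 0.036, limma adjusted p = 3.5e-06) with the groups well apart. Parp9, which lies near it on chromosome 16 and encodes a related protein, was higher by 0.30 ± 0.034, or 0.19 after cyclic loess scaling. Rnf213, a giant ubiquitin ligase with an AAA motor, went from 11.37, 11.36 and 11.36 to 11.97, 11.92 and 11.92. Its pulldown arrays all lay above the input arrays (0.57 ± 0.027, limma adjusted p = 1.6e-06). Cxcl10, a chemokine that draws T cells, stood at 11.44, 11.57 and 11.64 in the input and 12.11, 12.31 and 12.08 in the pulldown. Its spread was wider than that of most members, yet the groups did not overlap (0.62 ± 0.071, limma adjusted p = 0.00019).

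The size of the gene was compared with the difference, since neither transcript nor protein lengths were used here. Genomic span includes introns and is a coarse measure of RNA size. The members here include the transcribed pseudogenes Mx1 and Mx2, which the sets of coding genes leave out. Over the 35 members Spearman's rank correlation of the difference with span was 0.39, and over 18553 coding genes it was 0.36. Above 6.54 it was 0.40 over 33 members and 0.48 over 11762 coding genes. Members share their arrays and are not independent, so no p is given. Of the 9 members spanning over 20 kb, 7 were higher and 2, Usp18 and Mx2, were lower, with a median of 0.27. Long genes were mostly higher in general, since of 6488 coding genes of that class above 6.54, 4062 were higher and 965 lower, with a median of 0.25. In the class of 10 to 20 kb 7 of 10 members were lower and none was higher, with a median of -0.39. Among 2331 coding genes of that class above the median of all probe sets, 845 were higher and 791 lower, with a median of 0.03. Of the 10 members of 5 to 10 kb 6 were lower and 2 higher (median -0.19), and of 1509 such coding genes above the same mark 666 were lower and 355 higher (median -0.06). Of the 6 members up to 5 kb, 4 were lower and 1 was higher (median -0.61). Of the 1434 coding genes of that class above the same mark, 723 were lower and 231 higher (median -0.15). Cxcl10, with a span of 2252 bases, was the short gene that stood higher. These classes were set after the data were seen. They hold members of any level, with Mx1 and Ifitm1 below 6.54, whereas the coding genes beside them are those above it. Without that filter the medians of the coding genes, from the shortest class to the longest, were 0.0073, 0.0077, 0.028 and 0.11.

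**Figure D2:**
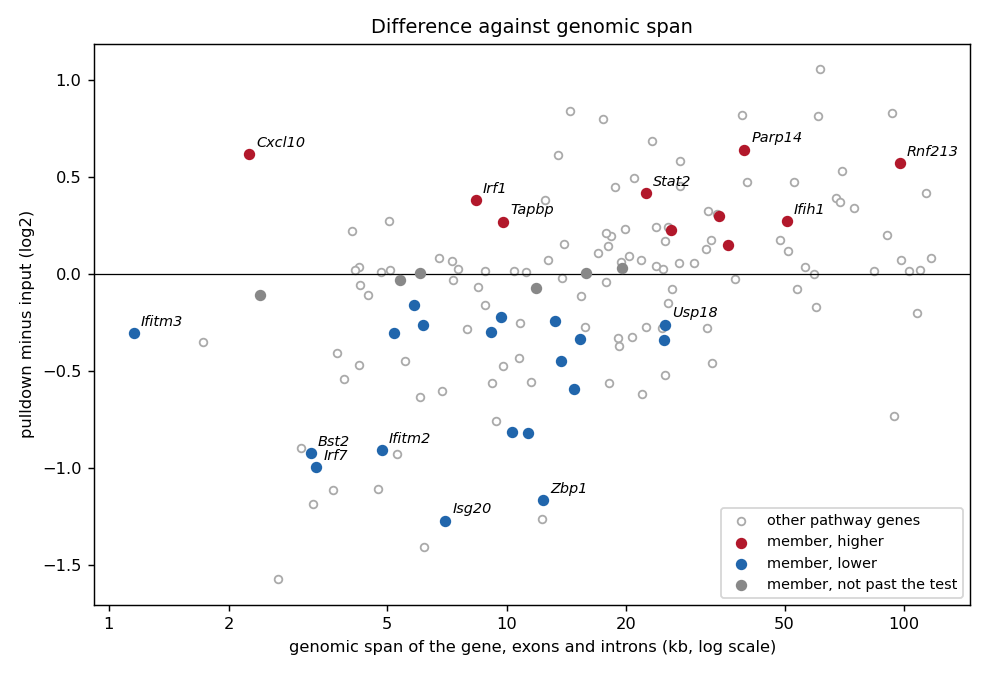
The horizontal axis is the genomic span of each gene in kb on a log scale and the vertical axis the log2 difference, pulldown minus input. Filled circles are the 35 members, coloured by the limma call, and open grey circles the other genes of the pathway. Members over 20 kb lie mostly above 0, and Cxcl10 lies high at the left.

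Other genes of the pathway were counted from 4 lists. Of 126 listed genes 111 had a probe set of their own, of which 37 were higher, 39 lower and 35 not past the test, with a median of 0.02. So 68.5% were called, against 48.7% of all genes. Of the 111, 96 exceeded 6.54 in whichever group was higher. The 72.6% called among all genes above 6.54 is therefore not a like comparison for this share or for those by list. By list the share called was 66.7% for receptors and signalling, 63.6% for sensing, 74.5% for other effectors and 62.5% for antigen presentation. Among receptors and signal transducers 10 of 18 were higher, 2 lower and 6 not past (median 0.16), and 31.3% of all genes were higher. With the test run on the 12156 genes above 6.54 alone, 9 of the 16 in this list and 5752 of all were higher. The count of higher genes in this list was 8 to 11 over the alternatives, with 8 after cyclic loess scaling. The kinase Jak2, which carries interferon gamma signals, was 1.06 ± 0.027 higher on the log2 scale, the phosphatase Ptpn11 (SHP2) 0.81 ± 0.032 and Stat3 0.48 ± 0.031. The lower members were Ifnar2, a chain of the type I receptor, at -0.46 ± 0.026, and Socs1, an inhibitor of JAK kinases, at -0.35 ± 0.074. Ifnar1, the other chain, was higher by 0.24 ± 0.030 and is named after its value was seen.

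In the list of sensing genes 9 of 22 were higher, 5 lower and 8 not past (median 0.08). Adar, which edits double-stranded RNA, was higher by 0.82 ± 0.038, the class I transactivator Nlrc5 by 0.83 ± 0.038 and the ligase Traf6 by 0.69 ± 0.038. Nlrc5 had 19 probe sets, of which the brightest is given. Dhx58 (LGP2), the short relative of RIG-I, was lower at -0.76 ± 0.044, Sting1, the adaptor of cytosolic DNA sensing, at -0.60 ± 0.033 and Irf5 at -0.27 ± 0.043.

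Of the further effectors 13 of 47 were higher, 22 lower and 12 not past (median -0.07). The helicase-domain proteins Helz2 and Znfx1 were higher by 0.84 ± 0.042 and 0.58 ± 0.030, and the Tudor protein Tdrd7 by 0.53 ± 0.030. Xaf1, a promoter of apoptosis, was lower at -1.26 ± 0.051, the chemokine Ccl5 at -1.11 ± 0.030 and Rtp4 at -0.73 ± 0.034.

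Remaining antigen presentation genes had 5 of 24 higher, 10 lower and 9 not past (median -0.06). The immunoproteasome subunits Psmb10 and Psmb9, which shape the peptides for class I molecules, stood at -1.57 ± 0.055 and -0.93 ± 0.036, and the proteasome activator subunit Psme2 at -1.11 ± 0.032. The peptidases Tpp2 and Npepps were higher by 0.37 ± 0.030 and 0.34 ± 0.049, and the class I gene H2-Q4 by 0.27 ± 0.030, although such genes share sequence with other class I genes. Differences between the lists were not tested.

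**Figure D3:**
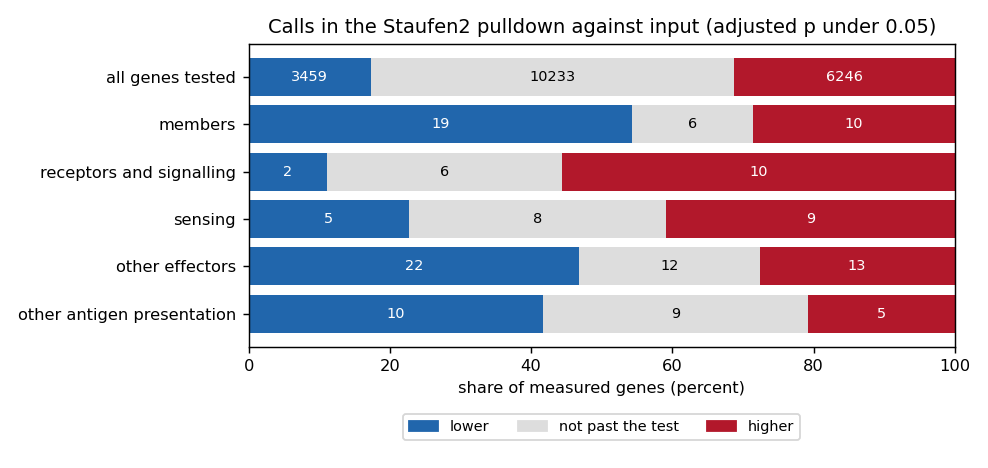
Bars show the percent of measured genes that were lower, not past the test or higher in the pulldown (limma adjusted p under 0.05), with the number of genes in each segment. The top bar is all 19938 genes, the next the 35 members (19 lower, 6 not past, 10 higher) and the others the 4 lists of further pathway genes. The bar of receptors and signalling has the longest higher segment, 10 of 18.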

How the data were processed

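For each of 6 arrays the deposited table gives a log2 value per probe set. The submitters' processing notes name RMA and limma. Which versions they were is not given in the sources used here. By design, RMA usually brings arrays to a common distribution (array medians were 6.53 to 6.54), so a difference is relative to the rest of the RNA. Of 35556 probe sets 21789 had 1 gene symbol in the platform's annotation, 1621 several and 12146 none. Only those with 1 symbol were named, the brightest per gene, which gave 19938 genes, 19856 of them matched to RefSeq (GRCm38.p6) by Entrez identifier for span.

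The test was limma 3.58.1 in R 4.3.3 (lmFit and eBayes, 2-sided, no covariates, Benjamini-Hochberg over all genes), checked on simulated data. The simulation drew independent noise for each array, so it checks the calculation and not whether the arrays are independent. All 42 members could be named, and from each list of other pathway genes up to 3 higher and 3 lower with the smallest adjusted p above the median of all probe sets. Members and lists were chosen with earlier results of these data known. Arrays have no read depth, and their number limits the precision. The labels do not say that a replicate number marks a shared lysate, so numbers were taken as names. Samples with the same number did not deviate together (correlations 0.0064, 0.041 and -0.052), which does not settle whether they were paired. Alternatives were a replicate block, an intensity trend, cyclic loess, centring on bright probe sets, a filter on dim genes, the mean of probe sets, ordinary in place of moderated statistics, and each array left out. Figures were drawn with matplotlib 3.10.9.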

Additional observations from a re-analysis of the deposited data

Results flagged for a closer look

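Some members had further probe sets of their own, which entered the comparisons only through the mean of probe sets. Those of Irf1 and Ifitm2 were given above. A search for probe sets with all pulldown arrays above all input arrays, in this direction only, returned 2, of Rnf213 and Irf1. The other way, all pulldown arrays lay below all input arrays in the further probe sets of Ifitm2 (-0.75 and -1.12) and Ifitm1 (-0.17, below 6.54). Over all genes the groups did not overlap for 55.9%, in either direction. The second probe set of Rnf213 stood at 10.86, 10.92 and 10.89 in the input and 11.77, 11.65 and 11.69 in the pulldown, a log2 difference of 0.81, where the brighter probe set gave 0.57. The second probe set of Irf1 lay near the median of all probe sets, at 6.65, 6.58 and 6.58 in the input and 6.71, 6.71 and 6.65 in the pulldown, a log2 difference of 0.089 against 0.38 for the brighter one.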

How the results depend on the processing

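With the replicate block 10 members were higher and 19 lower, as without it, and no member's call changed. Over all 13 alternatives 9 to 11 members were higher and 18 to 21 lower, no called member changed direction, and 30 of 35 kept their call under each that tested them. Mx1 and Ifitm1 were not tested among genes above the median. The members whose call changed were Ddx58, Tap2, Mx2 and Oas2, as given above, and Ifitm1, which passed after cyclic loess (-0.15), bright probe centring (-0.12), the mean of probe sets (-0.14), without input replicate 2 (-0.15) and without pulldown replicate 3 (-0.14). The median difference of the members was -0.33 after cyclic loess, -0.24 among genes above the median, where fewer genes were tested, and -0.24 to -0.20 with each array left out. Cyclic loess also made 4 receptor and signalling genes lower in place of 2. Apart from that filter, the cause was not tested. The rank correlation with span was 0.38 to 0.42 under all alternatives run. Protein length, planned in its place, was not run. Members near or below 6.54, such as Mx1 and Ifitm1, are limited by signal over background.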
